A study of Mus musculus with 8 samples.

Results

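The cells described here are the α-cells of mouse islets, chosen from single-cell UMI counts as cells in which Gcg, the gene of preproglucagon, took at least 5% of the UMIs of the cell. Sst (somatostatin) and Ppy (pancreatic polypeptide) each had to stay under 5%, and the insulin genes Ins1 and Ins2 together under 20%. UMIs are unique molecular identifiers, each standing for 1 captured transcript. The rule found 98 α-cells among 1232 kept cells, 87 in control and 11 in PPTx samples. Islets came from 8-week-old male C57BL/6J mice. The 4 control samples were from mice without any operation, and the 4 PPTx samples from mice that had lost 50% of the pancreas by partial pancreatectomy (PPTx) 2 days earlier. Each sample pooled islets of 1 to 3 mice, so the samples and not the cells are the replicates, and p-values measure the spread between these pools. There was no sham operation, and PPTx removed the splenic side of the organ, so that operation and the pancreatic region the islets came from cannot be told apart.

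The α-cell is the glucagon-secreting cell of the islet. Glucagon is cut from preproglucagon mainly by the convertase encoded by Pcsk2, is released when blood glucose is low and when amino acids are high, and raises glucose output of the liver. Transcription factors such as Pax6, Isl1 and Foxa2 act on the Gcg gene. PP-cells share several genes with α-cells.

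The Gcg promoter is shown because Gcg defined the cells, and that of Pyy (peptide YY) since Pyy was the only gene called between PPTx and control α-cells. Each run gives the 250 bases before the start of the gene, 5′ to 3′ on the strand of the gene, from RefSeq on GRCm38.p6, at chr2:62483654-62483903 (minus strand) for Gcg and chr11:102107833-102108082 (minus strand) for the first of the 2 Pyy starts listed. Capitals mark a forkhead core (TGTTTAC or TATTTAC, both strands) and a TATA box (TATAAA, strand of the gene), and none of these matches overlapped another.
Gcg: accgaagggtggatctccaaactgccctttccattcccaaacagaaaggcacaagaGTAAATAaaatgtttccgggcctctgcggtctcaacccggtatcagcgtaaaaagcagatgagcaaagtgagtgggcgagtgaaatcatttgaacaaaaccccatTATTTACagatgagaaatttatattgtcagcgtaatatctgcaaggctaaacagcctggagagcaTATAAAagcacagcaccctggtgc
Pyy: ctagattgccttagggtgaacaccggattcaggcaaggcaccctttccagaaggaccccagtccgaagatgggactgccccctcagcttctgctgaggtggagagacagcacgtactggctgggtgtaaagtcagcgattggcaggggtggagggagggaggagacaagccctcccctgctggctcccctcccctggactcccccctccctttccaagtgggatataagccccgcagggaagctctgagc

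In the Gcg promoter a forkhead core began 89 bases before the start and another 194 bases before it, and the TATA box at 24 bases. The Pyy window held neither of these runs of letters. The forkhead core was present in 6.51% of the 27025 genes with a promoter sequence, in 4.30% of the 1535 matched genes tested, in 8 of the 184 matched genes called higher in α- than in β-cells (4.35%) and in 17 of the 327 called lower (5.20%). The TATA box was present in 8.94%, 4.63%, 5.98% and 3.67% of the same sets. A match is a description of the sequence and not a site shown to be bound. Slc7a2, Irx1 and Kcnk3 had no entry among the promoters.

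Total counts per sample ranged from 236645 to 1580152 UMIs, 8 cells of 1240 exceeded the limits of 3000 genes or 20000 UMIs, and 1 barcode occurred in more than 1 sample. An α-cell held a median of 3867.5 UMIs (range 2035 to 11588) from 1223.5 genes, against 6136 UMIs in 923 β-cells (insulin-gated) and 5221 UMIs in 125 PP-cells (Ppy-gated). The δ-cells (Sst-gated) numbered 8 in all, 1 or 2 in each of 6 samples. Some genes that every cell uses were almost without UMIs in this table, since the 368 control β-cells held 0 UMIs of Eno1 and 40 of Gapdh. A zero is therefore not read as absence of a gene from a cell.

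The Gcg share was used by the rule and is given as a description. It had a median of 43.8% of the UMIs of an α-cell and ran from 21.2% to 58.9%. No α-cell lay between 5% and 20%, 5 lay between 20% and 30%, 22 between 30% and 40%, 55 between 40% and 50%, and 16 between 50% and 60%. The members nearest to the limit had 21.2%, 22.3% and 26.5%, and the nearest cells outside with low Sst, Ppy and insulin had 0.196%, 0.0808% and 0.0472%. The gap made the choice of the Gcg limit immaterial, since raising it to 10% removed no cell. Insulin took a median of 0.791% of the UMIs of an α-cell and at most 3.10%, whereas it took 59.7% of those of a β-cell. Ppy had no such gap, with α-cells at up to 4.64% and the next Gcg-rich cells outside at 5.41%, 5.47% and 5.50%. The sample medians of the Gcg share were 48.3%, 42.0%, 45.8% and 41.4% in control and 30.4%, 42.0%, 41.1% and 41.5% in PPTx samples, and these ranges overlapped.

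**Figure D1:**
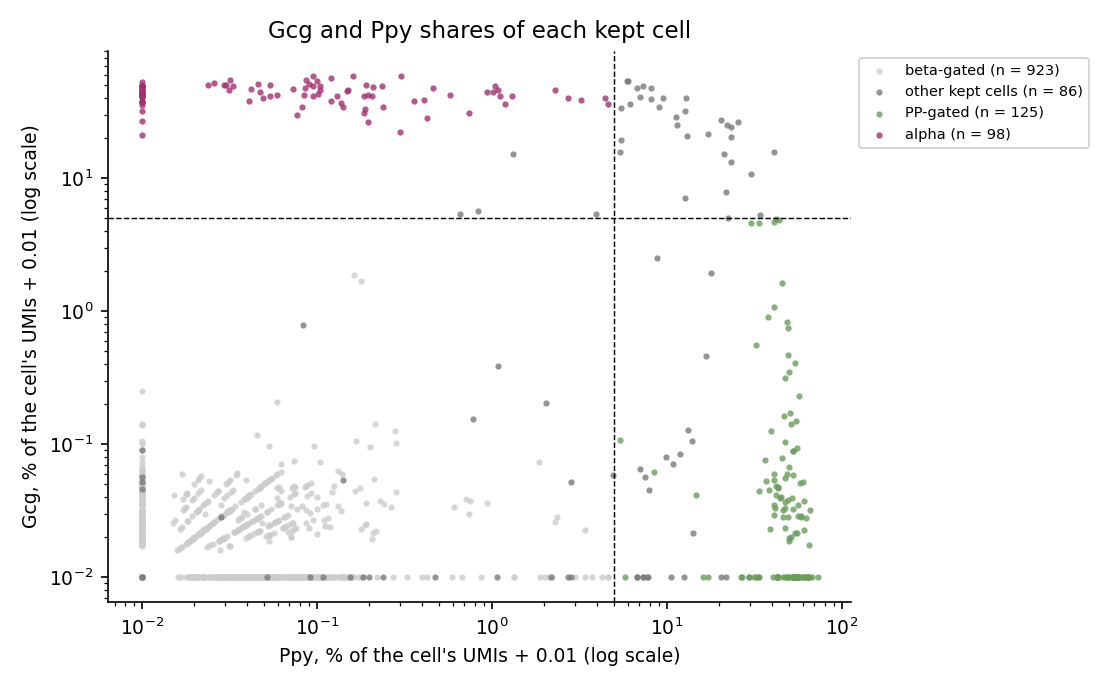
Each point is 1 of the 1232 kept cells, with the share of its UMIs from Ppy (x axis, log scale) and from Gcg (y axis, log scale), both with 0.01 added, and dashed lines at 5%. The 98 α-cells form a band between 21.2% and 58.9% Gcg, separate from all cells of low Gcg, and meet the cells with both hormones at the Ppy limit.

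In the samples the share of α-cells among kept cells was lower after PPTx. Control replicates 1 to 4 held 5 of 65, 11 of 102, 45 of 187 and 26 of 166 cells, or 7.69%, 10.8%, 24.1% and 15.7%. PPTx replicates held 2 of 125, 4 of 294, 4 of 135 and 1 of 158 cells, or 1.60%, 1.36%, 2.96% and 0.633% of cells. Every control sample lay above every PPTx sample. The means were 14.6% ± 7.14 for control and 1.64% ± 0.974 for PPTx (SD, n = 4 each), and differed by −12.9 points. An exact permutation test over samples gave p = 0.0286, which is as low as 4 samples against 4 can reach (0.0429 after adjustment over the 3 populations compared). All tests were two-sided. The exact Clopper-Pearson 95% interval, which covers counting error only, was 18.1% to 30.8% for control replicate 3 and 0.0160% to 3.48% for PPTx replicate 4. Without control replicate 3, the richest in α-cells, the difference was −9.74 points, and the smallest p then possible is 0.0571.

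The PP-cells moved the other way. They took 3.08%, 8.82%, 3.21% and 7.83% of control and 14.4%, 14.97%, 13.3% and 9.49% of PPTx cells, again without overlap of the groups (5.74% ± 3.02 against 13.0% ± 2.46, SD, n = 4 each, exact permutation test, p = 0.0286, adjusted p = 0.0429). The share of β-cells was 73.2% ± 7.61 (SD, n = 4) and 78.2% ± 4.15 (SD, n = 4) and did not pass the test (exact permutation test, p = 0.257). Among α- and PP-cells together, α-cells were 71.4%, 55.0%, 88.2% and 66.7% in control and 10%, 8.33%, 18.2% and 6.25% in PPTx samples. These are shares of cells that reached the table, and numbers of α-cells per islet were not measured. PP-cells and the region of the pancreas moved with the share of α-cells, and their part in it was not tested.

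**Figure D2:**
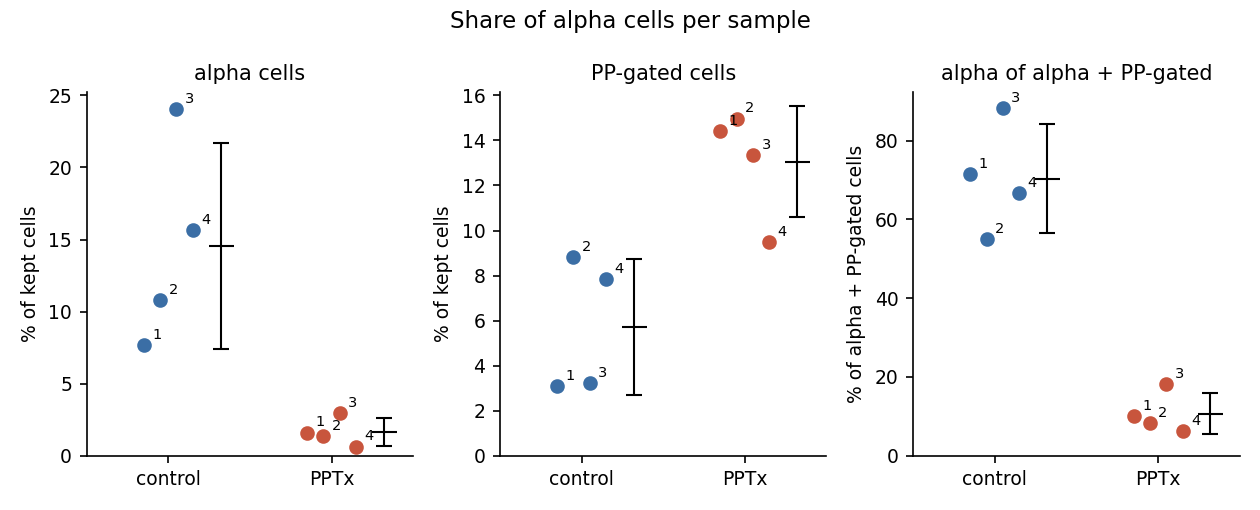
Share of α-cells (left) and PP-cells (middle) among kept cells, and share of α-cells among α- and PP-cells (right), per sample in percent. Points are samples numbered by replicate, and the bars beside them give mean ± SD of 4 samples. All 4 control samples lie above all PPTx samples on the left and on the right, and below them in the middle.

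The direction of this difference was the same without the Ppy limit of the rule, but its size as a ratio was not. Every cell with at least 5% Gcg, whatever its other hormones, made up 17.2% ± 8.41 of control against 4.46% ± 2.01 of PPTx cells (SD, n = 4 each), a ratio of 3.85 where the rule gave 8.88. Cells with both Gcg and Ppy at 5% or more and low insulin, which the limit leaves out, numbered 13 in control and 18 in PPTx samples, more than the 11 PPTx α-cells it keeps. Over all kept cells of a sample, Gcg took 4.31% ± 1.98 of the UMIs in control against 1.06% ± 0.522 in PPTx (SD, n = 4 each). Both values rest on Gcg, which the rule used, and are given without a test. A choice without Gcg, by at least 1% of UMIs from Ttr and under 20% insulin, took 120 cells, 116 of which had at least 5% Gcg, and gave 15.6% ± 8.96 (SD, n = 4) against 4.02% ± 2.14 (SD, n = 4; exact permutation test, p = 0.0286). A choice by at least 3 UMIs of Irx2, Gc, Slc7a2 and Irx1 took 153 cells, of which 78 were α-cells and 48 PP-cells, and gave 16.4% ± 7.98 (SD, n = 4) against 7.91% ± 4.796 (SD, n = 4), which did not pass (exact permutation test, p = 0.143). As a measure of background, Gcg in β-cells stood at 202 ± 138 control and 87.8 ± 63.8 PPTx UMIs (SD, n = 4 each) per 1000000 UMIs, far under the lowest α-cell. The choices other than the rule were added after the data had been seen.

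Expression was compared on summed counts per sample, scaled per 1000000 UMIs without the 5 hormone genes (CPM). Against β-cells, sums of the 4 control samples with at least 5 cells of both kinds were tested by the quasi-likelihood method of edgeR, blocked on the sample, at an adjusted p (Benjamini-Hochberg) of 0.05. Of 1986 genes tested, 253 were higher and 423 lower in α-cells, which is 34.0% called, 12.7% higher and 21.3% lower. Counts of listed genes called against β-cells below are to be set beside these shares, and some of them lie near these. The median over all tested genes was −0.15 on the log2 scale. With all genes in the library size and no TMM normalization, the median moved to 0.44 and the split to 644 higher and 189 lower, so directions of weak changes depend on the scaling. Further mentions of all genes in the library size refer to this setting, which also drops TMM. Without control replicate 3, which held 45 of the 87 control α-cells, 171 genes were higher and 167 lower.

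**Figure D3:**
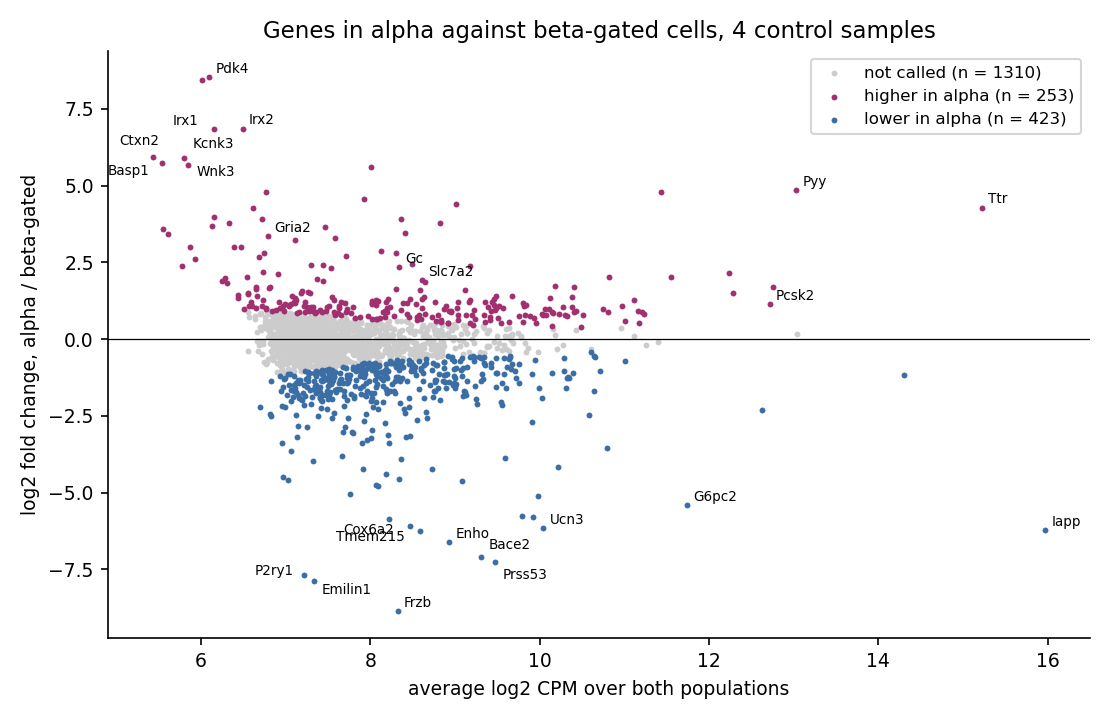
Log2 fold change of α- over β-cells (y axis) against the average log2 CPM (x axis) for the 1986 genes tested in 4 control samples. Coloured points passed an adjusted p of 0.05. Pdk4, Irx1 and Irx2 stand at the top, and Frzb, Iapp, Ucn3 and G6pc2 at the bottom.

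The markers given for these cells were found in them. They were listed with earlier results of these data known, so their levels are a description and not independent support. Ttr, which encodes the thyroxine carrier transthyretin, stood at 83346, 73281, 79157 and 79820 CPM in α-cells of control replicates 1 to 4, against 4074, 3446, 3396 and 3859 CPM in β-cells of the same samples. It was higher in all 4 samples, by 4.28 ± 0.27 (log2 fold change ± SE, adjusted p = 1.65e-54, edgeR). Irx2, an Iroquois homeobox factor, stood at 1025, 761, 311 and 357 CPM in α-cells and gave 3 UMIs in all control β-cells, a ratio of 140 (95% counting interval 46.1 to 695). Slc7a2, a carrier of cationic amino acids, was at 732, 1015, 897 and 696 CPM in α- and between 171 and 263 CPM in β-cells, a log2 fold change of 1.93 ± 0.21 (SE, adjusted p = 1.12e-17). Gc, the vitamin D binding protein, was at 146, 507, 961 and 809 CPM in α- and between 124 and 179 CPM in β-cells, and in control replicate 1 it was nearly level (146 against 135 CPM). All 4 markers tested were called higher, with a median log2 fold change of 3.31. With every control cell reduced to 1300 UMIs outside the hormone genes, at least 2 of the 4 were seen in 91.1% of 79 α-cells, 34.0% of 321 β-cells and 57.1% of 28 PP-cells. In all control cells without this step the shares were 96.6%, 56.5% and 83.3%, at median depths of 2043, 2715 and 3029.5 UMIs outside the hormone genes.

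Of 17 transcription factors of α- or islet cells, 13 were tested, 7 were higher and 2 lower than in β-cells, with a median log2 fold change of 0.73. Irx1, of the same Iroquois family as Irx2, was at 293, 609, 320 and 188 CPM and gave 2 UMIs in β-cells, a ratio of 165 (95% counting interval 43.8 to 1397). Etv1, an ETS factor, was higher by 4.27 ± 0.37, Isl1 by 1.30 ± 0.23 and Peg3 by 0.65 ± 0.27 (log2 fold change ± SE). The groups of samples did not overlap for Irx1, Irx2 or Etv1. Pax6 was lower by 0.74 ± 0.24 on the log2 scale, and Insm1, a zinc finger factor of endocrine cells, was lower by 1.87 ± 0.30. Neurod1, Foxa2, Nkx2-2 and Rfx6 did not pass the test, at log2 fold changes of 0.10, 0.08, 0.33 and 0.73. With all genes in the library size 10 of the list were higher, Neurod1, Nkx2-2 and Rfx6 among them, and 1 lower, Insm1. Pax6 then stood at −0.18 without a call, and also lost the call with DESeq2. Peg3 lost it with DESeq2 and without a filter on low counts.

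Among further genes with the largest changes, Pdk4, a kinase that inhibits pyruvate dehydrogenase, was at 146, 406, 320 and 263 CPM in α-cells and at 0 UMIs in β-cells, at least 108-fold higher (limit of 3 counts over the group). Kcnk3, which encodes the TASK-1 potassium channel, was at 439, 203, 247 and 169 CPM with 3 UMIs in β-cells, a ratio of 80.3 (95% counting interval 25.7 to 405). The other genes named by the rule were Ctxn2 (ratio 86.9, 22.1 to 749), Basp1 (61.7, 19.3 to 314), a growth-cone protein, and Wnk3, a kinase that regulates ion transport, at a log2 fold change of 5.66 ± 0.48. The level of Wnk3 in α-cells was uneven, with 1025 CPM in control replicate 1 and 150 to 229 CPM in the other three. Pyy was at 11865, 20502, 12510 and 28087 CPM in α- and between 185 and 1066 CPM in β-cells, a log2 fold change of 4.85 ± 0.20. Gpx3, an extracellular glutathione peroxidase chosen for mention after its values were seen, was higher by 4.79 ± 0.18.

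The genes that serve the β-cell were lower. Of 18 β-cell markers, 12 were tested, 11 were lower and none higher, with a median log2 fold change of −4.43. Iapp, which encodes amylin, was at 586, 863, 1858 and 2333 CPM in α- and between 112955 and 120421 CPM in β-cells, lower by 6.24 ± 0.36 on the log2 scale. G6pc2, the islet glucose-6-phosphatase subunit, gave 0 UMIs in α-cells of control replicates 1 and 2, and 101 and 169 CPM in replicates 3 and 4, against 3933 to 7569 CPM in β-cells. Ucn3, a marker of mature β-cells, was at 0, 0, 18.3 and 37.6 CPM in α-cells and between 1065 and 1729 CPM in β-cells. Frzb, a secreted Wnt antagonist, had 0 UMIs in α-cells and 402 in β-cells, at least 23.9-fold lower. Emilin1 and P2ry1 also had 0 UMIs in α-cells, at least 11.4-fold and 10.2-fold lower. Prss53, Bace2, Enho, Tmem215 and Cox6a2 had 1 UMI each in α-cells, against 956, 867, 623, 484 and 433 in β-cells. Of these Prss53 was 171-fold lower (95% counting interval 30.5 to 6743) and Cox6a2 77.2-fold lower (13.8 to 3058). The exception on the list was Slc30a8, the zinc transporter of insulin granules, at 1033 ± 211 CPM in α- and 1218 ± 170 CPM (SD, n = 4 each) in β-cells, which did not pass the test.

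The insulin found in α-cells gives a scale for these low values. Per cell, α-cells held 0.846%, 0.527%, 0.453% and 1.17% of the insulin UMIs of β-cells in control replicates 1 to 4. For Iapp the same quotient was 0.443%, 0.547%, 1.04% and 1.43%, and for Ucn3 0%, 0%, 0.762% and 1.55%. Other β-cell genes were less even: G6pc2 stood at 0%, 0%, 1.62% and 2.96%, Hadh at 0%, 0%, 0.520% and 3.75%, and Prlr at 0%, 6.87%, 0.554% and 0.937%. Slc2a2 stood at 22.5%, 5.40%, 0% and 5.72%. Pcsk1, with 3 UMIs in control α-cells, stood at 5.50% in replicate 3 and 0% in the others. For these 2 genes a single UMI already exceeds the insulin quotient, so their values cannot be read against it. Slc30a8 stood far above the insulin quotient, at 76.5%, 79.3%, 62.6% and 41.1%.

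Genes of hormone processing split into both directions. Of 17 tested, 7 were higher and 7 lower, with a median log2 fold change of −0.12. Pcsk2, the convertase that makes glucagon, was at 8642, 9896, 11018 and 9933 CPM in α- and 3643, 3693, 4599 and 4648 CPM in β-cells, a log2 fold change of 1.14 ± 0.17 (SE, adjusted p = 1.12e-10). Pcsk1, the convertase of proinsulin that yields GLP-1 in gut cells, gave 3 UMIs in α-cells and 303 in β-cells, 18.0-fold lower (95% counting interval 6.11 to 87.9). The 2 convertases thus moved in opposite directions. Gnas was higher by 2.16 ± 0.16, Resp18 by 1.70 ± 0.17, Pcsk1n, an inhibitor of Pcsk1, by 1.52 ± 0.16, Pam by 0.95 ± 0.17, Scg5, the chaperone of Pcsk2, by 0.91 ± 0.15, and Scgn by 0.68 ± 0.17 (log2 fold change ± SE). The granins Scg2, Chga, Scg3 and Chgb were lower by 2.32 ± 0.19, 1.17 ± 0.21, 0.71 ± 0.17 and 0.60 ± 0.17 on the log2 scale. Cpe, carboxypeptidase E, was at 9475 ± 1805 CPM in α- and 7558 ± 492 CPM in β-cells (SD, n = 4 each) and did not pass. With all genes in the library size 9 of the list were higher and 4 lower, Cpe and Ptprn2 among the higher ones, and the calls of Scg3 and Chgb were lost. Without a filter on low counts 4 were higher and 6 lower, and Pam, Scg5 and Scgn lost the call, Scgn also with DESeq2.

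Of 8 genes of glucose handling tested, 5 were lower and none higher (median log2 fold change −0.60), but with all genes in the library size 2, Kcnj11 and Abcc8, were higher and 2 lower. Those that kept their call were G6pc2 and the glucose transporter Slc2a2, which was lower by 4.62 ± 0.41 on the log2 scale. The KATP channel subunits Kcnj11 and Abcc8 did not pass the test in the first scaling, at log2 fold changes of 0.70 and 0.07. Of 7 amino acid transporters tested, 3 were higher, Slc7a2, Slc7a8 (1.26 ± 0.25) and Slc3a2 (0.77 ± 0.27), the partner chain of Slc7a8, while Slc7a14 was lower by 0.87 ± 0.31. The call of Slc7a14 was lost with DESeq2 and with all genes in the library size, that of Slc3a2 with DESeq2 and without a filter, and that of Slc7a8 without a filter, so that 1 higher gene, Slc7a2, kept its call in all of these. In control replicate 1, with 5 α-cells, Slc7a8 and Slc3a2 were lower than in β-cells, and they were higher in the other 3 samples. Among channels and receptors, 9 of 31 were tested, 3 higher and 3 lower. Gria2, an AMPA-type glutamate receptor subunit, was at 1172, 507, 284 and 320 CPM in α- and between 24.6 and 48.2 CPM in β-cells, and Tmem27 was higher by 2.03 ± 0.15. The cation channel gene Trpm5 gave 1 UMI in α- and 370 in β-cells, 66.0-fold lower (95% counting interval 11.8 to 2614), and Sstr3 and Igf1r were lower by 1.21 ± 0.36 and 1.48 ± 0.43 on the log2 scale, both losing the call with all genes in the library size.

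Endoplasmic reticulum chaperones were lower in α-cells. Of 19 tested, 14 were lower and none higher, with a median log2 fold change of −1.35, and with all genes in the library size 11 were lower and 1, Hsp90b1, was higher (0.38). Hspa5, the chaperone BiP, was at 439, 1370, 952 and 1035 CPM in α- and 1391, 1687, 2135 and 2151 CPM in β-cells, lower by 1.04 ± 0.17 on the log2 scale. Manf was lower by 1.61 ± 0.19, Pdia6 by 1.59 ± 0.20, Calr by 1.24 ± 0.18 and Wfs1 by 3.21 ± 0.47. Metallothioneins were lower too, Mt1 by 2.70 ± 0.24 and Mt2 by 2.38 ± 0.34. Of 13 exocytosis genes tested, 6 were lower and none higher (median −0.80), and with all genes in the library size 2 were higher and 4 lower. Of 15 immediate early genes 4 were tested and 3 were higher, Fos, Jun and Egr1, by 2.81 ± 0.23, 1.96 ± 0.32 and 1.88 ± 0.31, with Fos at 1758, 1573, 705 and 640 CPM in α- and 295, 190, 79.1 and 99.4 CPM in β-cells. None of 3 MHC class I genes tested was called, at log2 fold changes of −0.18 for H2-K1, 0.51 for H2-D1 and −0.54 for Tapbp, but with all genes in the library size H2-D1 was called higher (1.08).

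Markers of acinar, immune, endothelial, mesenchymal and red blood cells were at or near 0 in control α-cells. In the control α-cells, 10 of 12 acinar markers, 8 of 9 immune, 4 of 6 endothelial, 5 of 6 mesenchymal and all 4 red blood cell markers had no UMI, and none of these lists had a tested gene. Their summed level was at most 37.6 CPM for the acinar, 101 CPM for the immune, 36.6 CPM for the endothelial and 152 CPM for the mesenchymal list in any control α-cell sum. In the pooled PPTx α-cells the acinar list gave 2 UMIs, the immune list 7, the mesenchymal list 1 and the endothelial list none. There the immune list reached 488 CPM in 1 sum. The duct list gave 23 UMIs (648 CPM pooled), 17 of them from Spp1 in PPTx replicate 2, and reached 1639 CPM in 1 sum. In control α-cells 1 of 3 Schwann and 3 of 5 duct markers had no UMI. Krt7, a duct keratin, was the 1 duct marker tested, at 216 ± 58.0 CPM in control α- and 371 ± 27.8 CPM in control β-cells (SD, n = 4 each). It was called lower in α-cells (0.95 ± 0.28 on the log2 scale), a call lost with all genes in the library size (−0.39). Of the δ-cell markers Hhex, Ghsr, Cd24a, Ptprz1 and Spock3 had no UMI, while Rbp4 was higher in α- than in β-cells by 3.92 ± 0.24 on the log2 scale. Ghrl and the 7 Reg genes had no UMI in control α-cells. Of 14 integrated stress response genes, 3 were tested and none was called higher than in β-cells. Asns was lower by 0.98 ± 0.41 on the log2 scale, a call lost with DESeq2, with all genes in the library size and without a filter. Mitochondrial transcripts, a sign of RNA quality, were not analysed here.

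The 11 α-cells of the PPTx samples took no part in the comparison with β-cells. In their pooled counts of 35503 UMIs outside the hormone genes, 224 of the 253 genes called higher stood above the pooled PPTx β-cells (88.5%), and 405 of the 423 called lower stood below (95.7%). Over all 1986 genes tested the share above was 41.3% and the share below 58.7%. The pooled level has no replicate error.

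Against PP-cells fewer genes could be tested. In the 3 control samples with at least 5 cells of both kinds, 29 of 517 genes were higher and 29 lower in α- than in PP-cells, which is 11.2% called, and 5.61% in each direction. With DESeq2, 15 were higher and 10 lower, and with all genes in the library size and no TMM normalization 136 and 11. Leaving out control replicate 3 gave 19 higher and 25 lower genes, and leaving out control replicate 4 gave 11 and 12. The comparisons with β- and with PP-cells share the α-cell sums, so values of a gene in both are set side by side without a test of their overlap.

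Markers and carriers were among the genes higher in α- than in PP-cells. Ttr was at 5225, 5781 and 6563 CPM in PP-cells of control replicates 2 to 4 and higher in α-cells by 3.44 ± 0.21 (log2 fold change ± SE, adjusted p = 1.05e-09, edgeR). Irx2 was at 163, 0 and 22.6 CPM in PP-cells and higher in α-cells by 2.65 ± 0.58, with no overlap of the samples. Cryba2 was higher by 2.91 ± 0.45, Slc7a8 by 2.72 ± 0.57, Slc30a8 by 2.49 ± 0.41, Gars by 1.88 ± 0.57, Slc7a2 by 1.80 ± 0.34, Map3k15 by 1.60 ± 0.30 and Igfbp7 by 1.43 ± 0.36. Pcsk2, at 9896, 11018 and 9933 CPM in α- and 4931, 5619 and 5661 CPM in PP-cells, was higher by 0.63 ± 0.15. Neurod1 was higher by 1.01 ± 0.29, and Chga, lower than in β-cells, by 0.85 ± 0.16. The calls of Gars and Neurod1 were lost with DESeq2 and without a filter on low counts, that of Igfbp7 with DESeq2, and those of Pcsk2 and Chga without a filter.

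In the other direction Tspan8, a tetraspanin, was at 0, 18.3 and 37.6 CPM in α- and 1437, 1567 and 1263 CPM in PP-cells, lower by 6.14 ± 0.39 on the log2 scale. Pyy was at 20502, 12510 and 28087 CPM in α- and 240530, 246110 and 278868 CPM in PP-cells, lower by 4.01 ± 0.30. Mt2 and Mt1 were lower by 3.09 ± 0.43 and 2.89 ± 0.33, Clu by 2.30 ± 0.36, Scg2 by 1.60 ± 0.19 and Rgs2 by 1.55 ± 0.26. 8430408G22Rik and Rad21 were lower by 2.65 ± 0.41 and 1.73 ± 0.43. Rgs2 and Rad21 lost the call with DESeq2 and without a filter. The ER list, lower against β-cells, had 2 of 10 tested genes lower against PP-cells (Pdia6 and Ssr3), and the immediate early list 1 of 4 (Jun, lower by 1.01 ± 0.29). With DESeq2, with all genes in the library size, or without a filter on low counts, none of these 10 and 4 genes was called lower. Fos was called higher than in PP-cells with all genes in the library size (log2 fold change 0.85).

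Several genes high against β-cells did not pass the test against PP-cells. Gc was at 507, 961 and 809 CPM in α- and 620, 756 and 722 CPM in PP-cells, with a log2 fold change of −0.16 ± 0.23 (SE, adjusted p = 0.732, edgeR). Etv1 and Gria2 stood at −0.38 ± 0.34 and −0.39 ± 0.36. The samples of both populations overlapped in each of these 3 genes. Of the 4 tested markers, 3 (Ttr, Irx2 and Slc7a2) were called higher than in PP-cells and Gc was not.

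**Figure D4:**
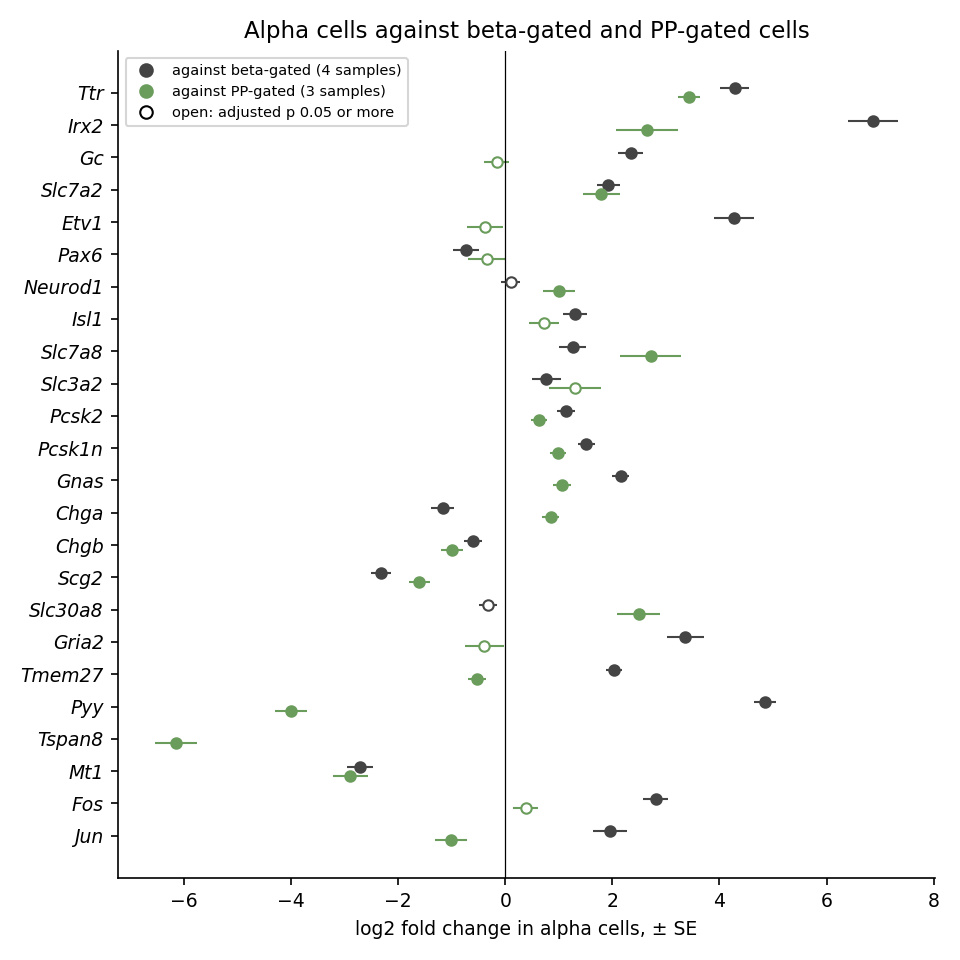
Log2 fold change ± SE of α-cells against β-cells (grey, 4 control samples) and against PP-cells (green, 3 control samples) for identity, processing and transport genes, with open points where the adjusted p was 0.05 or more. Ttr, Irx2 and Slc7a2 lie right of 0 in both, whereas Gc, Etv1 and Gria2 are right of 0 against β-cells and near 0 against PP-cells.

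For δ-cells no sample reached 5 cells, and an added fit took the 6 samples with any δ-cell. It tested 21 genes and called 6, or 28.6%. Ttr was higher in α-cells by 6.34 ± 0.43 and Pcsk1n by 2.05 ± 0.45 (log2 fold change ± SE, edgeR). Iapp was lower by 4.28 ± 0.42 on the log2 scale, the retinol carrier Rbp4 by 2.06 ± 0.42, Scg2 by 1.94 ± 0.42 and Pyy by 1.77 ± 0.27. These values rest on 8 δ-cells.

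For the effect of PPTx within α-cells, no PPTx sample reached the 5 cells asked of a sum, so the comparison fixed for this purpose could not be fitted. An added fit took all 8 samples, with 5, 11, 45 and 26 control and 2, 4, 4 and 1 PPTx α-cells. It tested 145 genes and called 1, or 0.69%, and 12 had an unadjusted p under 0.05. DESeq2 also called 1. The median number of UMIs per α-cell was 2558, 3156, 4237 and 3322 in control and 2982, 6169.5, 7610.5 and 3413 in PPTx samples, overlapping ranges (exact permutation test, p = 0.257).

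The called gene was Pyy. Its level in α-cells was 11865, 20502, 12510 and 28087 CPM in control and 63384, 29757, 121370 and 173422 CPM in PPTx samples, so every PPTx sample lay above every control sample. Such a separation was not particular to Pyy. Tm4sf4, Rps14, Rpl38 and Rps19, none of them called, were lower in every PPTx than in every control sample. How many of all tested genes separate in this way was not counted. The log2 fold change of Pyy was 2.44 ± 0.46 (SE, adjusted p = 5.9e-05, edgeR). The call was lost without a filter on low counts (1.46 ± 0.67, adjusted p = 0.595, edgeR). It was also lost with a block on replicate number (2.36 ± 0.54, adjusted p = 0.0557, edgeR), although these numbers were not taken to pair the samples. As a share of all UMIs, Pyy took 0.633%, 1.12%, 0.660% and 1.57% in control and 4.36%, 1.57%, 6.66% and 9.90% in PPTx α-cells (0.996% ± 0.443 against 5.63% ± 3.53, SD, n = 4 each, exact permutation test, p = 0.0286), where the highest control and the lowest PPTx sample, 1.568% and 1.574%, nearly meet. At least 1% Pyy was reached by 20 of 87 control and 8 of 11 PPTx α-cells, and at least 5% by 2 and 4 cells.

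**Figure D5:**
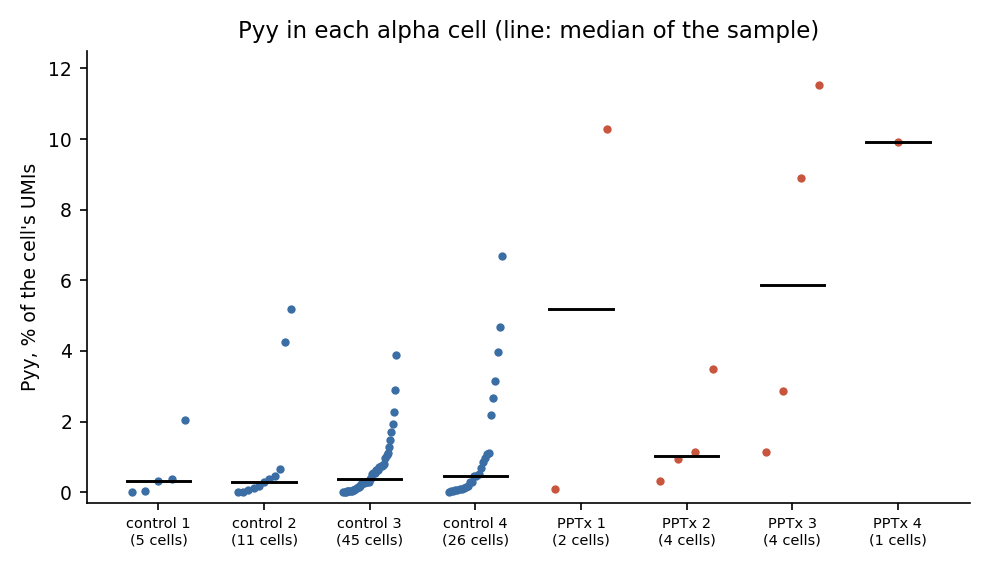
Pyy as percent of the UMIs of each α-cell (y axis), by sample, with the sample median as a line. Control medians lie between 0.279% and 0.459%, and PPTx medians, from 1 to 4 cells each, between 1.03% and 9.90%.

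Values of PP-cells moved with Pyy. Pyy took a median of 9.75% of the UMIs of a PP-cell, and PP-cells were more frequent in PPTx samples, and their part in the level of α-cells was not tested. Ppy, which the rule held under 5%, took 0.0625%, 0.440%, 0.170% and 0.563% in control and 0.335%, 0.134%, 2.25% and 0.176% in PPTx α-cells. As a measure of background, Ppy in β-cells stood at 285 ± 150 control and 1103 ± 575 PPTx UMIs per 1000000 UMIs (SD, n = 4 each), while Pyy took 0.0767% ± 0.0287 (SD, n = 4) of the UMIs of PPTx β-cells. The PP-cell marker Tspan8 gave 4 UMIs in control α-cells (21.2 CPM, 3 of 87 cells) and 2 in PPTx α-cells (56.3 CPM, 2 of 11 cells). Fxyd6, another PP-cell marker, was at 146, 152, 265 and 282 CPM in control and 244, 0, 58.0 and 0 in PPTx α-cells. Meis2, also on that list, was at 0, 101, 183 and 339 CPM in control and 0, 82.0, 232 and 513 in PPTx α-cells. Spp1, on the duct list and at 386 CPM in control and 485 CPM in PPTx PP-cells, gave 5 UMIs in control α-cells (26.5 CPM, 5 of 87 cells) and 17 in PPTx α-cells (479 CPM, 3 of 11 cells), all 17 in PPTx replicate 2, the PPTx sample lowest in Pyy, and its part was not tested. For each Ppy UMI there were 13.0, 11.7, 2.96 and 56.3 Pyy UMIs in PPTx α-cells, against 0.273, 0.205, 0.190 and 0.304 in PP-cells of the same samples. The limit on Ppy itself removes cells with much of it, so that this quotient is partly set by the rule. With Ppy under 1%, 79 control and 8 PPTx α-cells remained, and Pyy took 0.669% ± 0.371 against 4.24% ± 4.04 (SD, n = 4 each), with overlapping samples (exact permutation test, p = 0.0571). With any Ppy, in 100 control and 29 PPTx cells, it took 1.68% ± 0.465 against 6.82% ± 2.76 (SD, n = 4 each, exact permutation test, p = 0.0286). In PP-cells Pyy stood at −0.10 ± 0.23 between PPTx and control, which did not pass.

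Pyy in β-cells was called higher after PPTx, by 1.58 ± 0.33 on the log2 scale (adjusted p = 0.0250, edgeR, 1 of 19 genes called of 5697 tested, 0.334%). The samples overlapped, and the share did not pass the exact permutation test (p = 0.0571). The call was lost with DESeq2 (adjusted p = 0.0966), with an insulin limit of 30% (0.284), and without control replicate 1, 2 or 3 or PPTx replicate 1 or 3 (0.0506 to 0.108). Of the 2432 Pyy UMIs in 555 PPTx β-cells, 1786 lay in 12 cells with at least 1% Pyy, 3 in each sample, against 2 such cells among 368 control β-cells.

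The remaining genes with the lowest p in α-cells were not called. Igfbp7 stood at 1018 ± 243 CPM in control and 1857 ± 1177 in PPTx (SD, n = 4 each, adjusted p = 0.144, edgeR), Fos at 1169 ± 579 and 1796 ± 1632, Ssr2 at 554 ± 212 and 1036 ± 449, and Gc at 606 ± 360 and 1087 ± 440. Tm4sf4 stood at 987 ± 257 and 183 ± 214 (adjusted p = 0.175), Lpl at 1258 ± 294 and 405 ± 386, Rps14 at 3411 ± 792 and 1923 ± 505, Rpl38 at 917 ± 186 and 341 ± 244, and Rps19 at 1163 ± 281.6 and 504 ± 368. Tm4sf4 had 0 UMIs in PPTx replicates 1 and 4, whose sums of 2 cells and 1 cell held 4102 and 1949 UMIs outside the hormone genes. Of the α-cell markers, Ttr stood at a log2 fold change of −0.24 ± 0.45 and Slc7a2 at −0.08 ± 0.42, and of 14 processing genes tested none was called, with a median of 0.19 against −0.04 over all tested genes. The difference between the PPTx effects in α- and β-cells was called for none of 2595 genes (0.0% called, edgeR, with 166 at an unadjusted p under 0.05, and none by DESeq2). The lowest p there belonged to Tm4sf4 (−2.12 ± 0.53 on the log2 scale, adjusted p = 0.147) and Pak3 (−2.12 ± 0.57) among lower and Ppp6r3 (2.45 ± 0.71) and Ncoa2 (2.46 ± 0.88) among higher genes.

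Few α-cells carried transcripts of dividing cells. At least 2 UMIs of 11 mitotic genes were found in 1 of 87 control α-cells (1.15%, exact 95% interval 0.0291% to 6.24%) and in 1 of 11 PPTx α-cells (9.09%, 0.230% to 41.3%). In β-cells the shares were 10 of 368 (2.72%, 1.31% to 4.94%) and 28 of 555 (5.05%, 3.38% to 7.21%). These intervals pool the cells of all samples of a group and cover counting error only. Those of α- and β-cells overlapped in both groups. The median depth was also lower in α-cells, at 3867.5 against 6136 UMIs, which makes 2 UMIs harder to reach. Mki67 gave 1 UMI and Top2a 4 UMIs in all 98 α-cells, too few for a comparison.

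Cells with both Gcg and Ppy at 5% or more and insulin under 20% numbered 31, of which 13 were in control and 18 in PPTx samples, and they lay outside the rule. Their pooled level of Ttr was 32996 CPM, between 75868 CPM in α- and 4482 CPM in PP-cells. Tspan8 was at 322 CPM, between 26.7 and 1351 CPM. Their median depth was 4727 UMIs, and whether they are single cells or pairs was not tested.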

How the data were processed

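Single islet cells of 4 control and 4 PPTx samples were profiled in droplets (ddSEQ in the study's methods, whereas the sample labels also name a Chromium kit). The authors ran Cell Ranger on mm10, and the deposited table gives raw UMI counts of 24421 genes in 1240 cells, not normalized. The cell filter behind this table is not given in the sources used here, and the lowest cell held 2005 UMIs. The members, gene lists and tests were chosen with earlier results of these data known.

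Cells with over 3000 genes or 20000 UMIs were left out, and no doublet caller was run. Counts were summed per sample and population (at least 5 cells), library sizes excluded Ins1, Ins2, Gcg, Sst and Ppy, which were not tested, and filterByExpr, TMM and the quasi-likelihood test of edgeR 4.0.16 were used at an adjusted p (Benjamini-Hochberg) of 0.05. DESeq2 1.42.0, other scalings, filters and gates, thinned counts and leaving out samples were alternatives. Shares were compared by exact permutation over samples (scipy 1.17.1). Tests were tried on simulated counts first. Named were list genes, the called genes with the largest fold changes (at most 10 per direction, average log2 CPM of at least 5, 1 direction in every sample) and, between PPTx and control, up to 5 each way by p. Some genes that this rule names are not reported here.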

Additional observations from a re-analysis of the deposited data

Results flagged for a closer look

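In 42 groups of 4 samples checked, 9 held a sample apart from the other 3, where chance alone gives about 1 in 20. Gcg in β-cells of control samples stood at 406 per 1000000 UMIs in control replicate 3, the sample richest in α-cells, against 102 to 153 in the others. The median Gcg share of α-cells was 30.4% in PPTx replicate 1, which held 2 α-cells, against 41.1% to 42.0% in the other PPTx samples. In control α-cells Ctxn2 stood at 254 CPM in replicate 2 and Wnk3 at 1025 CPM in replicate 1, above the other 3 samples. The other 5 were single UMIs against 0 in the remaining samples: Prss53, Enho and Cox6a2 at 9.15 CPM each in replicate 3, and Bace2 and Tmem215 at 18.8 CPM each in replicate 4. A group of this kind is always flagged, so the rate of 1 in 20 does not hold for these 5.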

How the results depend on the processing

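The difference in α-cell share was −12.9 points with a Gcg limit of 10% or insulin limits of 10% or 30%, −13.7 over cells with 1 hormone, and −8.50 (exact p = 0.143) with the added choice by Irx2, Gc, Slc7a2 and Irx1. Leaving out each sample gave −15.2 to −9.74, where no p under 0.05 can be had. Same-numbered samples were not treated as pairs in the main tests. Their deviations correlated at 0.184, 0.0455, 0.168 and 0.325 over 1986 genes in β-cells, all of them positive. Samples of unlike number correlated at −0.216 to 0.145, and 3 of 4 control samples correlated best with their own number. Whether the numbers mark a batch was not tested. With the replicate block the share differed by −12.9 and the Pyy share by 4.63 points (exact p = 0.125 for both, the smallest possible), and calls in α-cells went from 1 to 0 (Pyy 2.36 ± 0.54, adjusted p = 0.0557, edgeR).

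Against β-cells, genes called higher and lower were 644 and 189 with all genes in the library size and no TMM, 676 lower without a filter, and 16 and 12 after thinning to the shallower sum, which left 383 genes. Leaving out a sample gave 171 to 366 higher and 167 to 401 lower. Against PP-cells they were 136 and 11 with all genes in the library size and no TMM, and 15 and 10 with DESeq2. They were 13 and 11 without a filter, 13 and 16 after thinning, and 18 lower with all samples. Leaving out a sample gave 11 to 29 higher and 12 to 25 lower. For PPTx in α-cells no gene was called without a filter, and 1 to 3 higher and 0 to 2 lower with a sample left out. The difference between PPTx effects had 1 lower gene with all genes in the library size and no TMM, and 0 to 1 with a sample left out. The Pyy difference of 4.63 points was 3.57 with Ppy under 1% and 3.20 to 5.98 with a sample left out. Causes were not tested, apart from the fewer genes and samples named.

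Among genes called in the main fit or in the alternative, directions turned for Hsp90b1 (0.38) and Ptprn2 (0.46) with all genes in the library size and no TMM. They also turned for Scg3 (0.38) and Slc3a2 (−0.031) after thinning, and for Pyy against all cells outside the gate (−0.36), which include PP-cells. Iapp against PP-cells turned with all samples (−1.35). Of the values of listed and named genes against β-cells under alternatives, 1482 stayed called or stayed uncalled, 111 lost the call and 24 gained it. The 1482 include uncalled genes whose sign turned, such as Canx (−0.41, and 0.16 with all genes in the library size and no TMM). Comparisons with at least 5 δ-cells, of PPTx in α-cells with at least 5 cells and after thinning, and with PP-cells at 10 cells were not run, for want of cells.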
